A study of Mus musculus with 35 samples.

Results

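The 9 neural crest transcription factors Msx1, Msx2, Tfap2a, Tfap2b, Foxd3, Sox9, Sox10, Ets1 and Sox5 were followed in RNA-seq of mouse embryonic stem cells (ESCs) differentiating to neuroectoderm (NE). Their rows were taken by gene symbol alone, and the genes were chosen with earlier results of these data known. They are 9 of the 18930 genes listed in any of 3 tables of normalized counts, one for each experiment. All 9 were listed in each table and all 9 passed the filter on low values. The cells were V6.5 ESCs, a male mixed-strain mouse line, grown without LIF and with 1 µM retinoic acid (RA) for 72 h in every group. Tet3+/+ cells carried wild-type TET3, an enzyme that oxidizes methylated cytosine in DNA. Tet3m/m cells carried point mutations in the catalytic domain that abolish this activity, and Tet3-/- cells a deletion of an early exon.

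Day 3 cells without a vector comprised 3 Tet3+/+, 3 Tet3m/m and 2 Tet3-/- samples, which the study describes as independent clones in every genotype. In the Dnmt1 experiment, each genotype received an empty vector or Myc-tagged Dnmt1, the maintenance DNA methyltransferase, at the start of differentiation and was put under blasticidin selection, with 2 samples in each of the 6 groups. In the Tet3-CD experiment, each genotype received an empty vector or the HA-tagged TET3 catalytic domain (Tet3-CD) during differentiation, with 1 sample in each of the 6 groups. The labels give 72 h for these samples too, whereas the study's methods describe a later collection. Which clone was transfected, and whether the 2 samples of a group were separate cultures, is not given in the sources used here, so that p-values of the Dnmt1 experiment measure only the spread between these samples, which may be technical.

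Recovered reads per sample ranged from 31155842 to 50845950 over the 3 experiments. Tet3 was at 4577 to 5020 normalized counts in day 3 Tet3+/+ cells, 1945 to 2666 in Tet3m/m and 1796 and 2329 in Tet3-/-. In the empty-vector cells transfected beside Dnmt1 it was at 2957 and 3075 in Tet3+/+, 1125 and 964 in Tet3m/m, and 2520 and 2571 in Tet3-/-, so that the Tet3-/- libraries of that experiment lay close to Tet3+/+. A count over the whole gene cannot tell mutated or exon-deleted transcripts from wild-type ones. The NE markers Sox1, Pax6 and Nes averaged 1962, 1708 and 9546 normalized counts in day 3 Tet3+/+ cells, and the pluripotency genes Pou5f1 and Nanog were still at 966 and 1387.

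The neural crest forms where the neural plate meets the surface ectoderm. BMP, WNT and FGF signals there turn on plate border specifiers such as Msx1, Msx2 and the AP-2 genes Tfap2a and Tfap2b. These prepare the border cells for crest specifiers such as Foxd3, Sox9, Sox10 and Ets1, which drive delamination, migration and fate. Several of the genes have other uses in early embryos: Foxd3 maintains pluripotent cells, Sox9 acts in chondrocytes and glia, and Ets1 in endothelium and blood. In bulk RNA, fewer cells of a type and less RNA per cell cannot be told apart.

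Because TET3 and DNMT1 act on cytosines in CG pairs, the promoter windows of the 4 plate border specifiers are shown, which fell together in Tet3m/m cells carrying the empty vector of the Dnmt1 experiment. The windows run from 250 bases before to 50 bases after each gene start in RefSeq (GRCm38.p6), 5′ to 3′ on the gene's strand, with CG pairs in capitals. They lie at chr1:19211804-19212103 for Tfap2b (plus strand), chr13:40734871-40735170 and chr13:40733746-40734045 for the 2 annotated starts of Tfap2a (minus strand), chr5:37824536-37824835 for Msx1 (minus strand) and chr13:53472731-53473030 for Msx2 (minus strand).
Tfap2b: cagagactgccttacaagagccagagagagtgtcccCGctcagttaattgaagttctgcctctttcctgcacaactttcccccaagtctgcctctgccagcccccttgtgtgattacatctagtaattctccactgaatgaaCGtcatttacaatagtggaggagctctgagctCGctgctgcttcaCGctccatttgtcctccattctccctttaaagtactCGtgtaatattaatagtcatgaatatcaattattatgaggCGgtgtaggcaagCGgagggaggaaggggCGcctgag
Tfap2a, upstream start: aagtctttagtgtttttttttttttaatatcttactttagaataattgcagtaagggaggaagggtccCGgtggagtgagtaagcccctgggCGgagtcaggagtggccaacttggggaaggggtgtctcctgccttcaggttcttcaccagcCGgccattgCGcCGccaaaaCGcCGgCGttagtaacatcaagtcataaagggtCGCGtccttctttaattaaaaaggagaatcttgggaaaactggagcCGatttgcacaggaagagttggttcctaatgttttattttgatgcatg
Tfap2a, downstream start: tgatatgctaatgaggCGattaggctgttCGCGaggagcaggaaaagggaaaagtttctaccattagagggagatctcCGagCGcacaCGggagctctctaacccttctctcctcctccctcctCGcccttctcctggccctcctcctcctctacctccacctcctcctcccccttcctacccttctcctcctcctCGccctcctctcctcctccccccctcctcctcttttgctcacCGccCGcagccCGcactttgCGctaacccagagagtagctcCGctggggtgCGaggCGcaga
Msx1: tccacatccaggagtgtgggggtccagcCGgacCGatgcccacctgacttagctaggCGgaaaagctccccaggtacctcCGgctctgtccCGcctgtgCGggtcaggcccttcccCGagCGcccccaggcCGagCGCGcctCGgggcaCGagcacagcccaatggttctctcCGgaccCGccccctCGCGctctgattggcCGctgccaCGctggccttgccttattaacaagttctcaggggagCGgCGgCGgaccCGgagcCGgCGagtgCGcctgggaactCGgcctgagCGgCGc
Msx2: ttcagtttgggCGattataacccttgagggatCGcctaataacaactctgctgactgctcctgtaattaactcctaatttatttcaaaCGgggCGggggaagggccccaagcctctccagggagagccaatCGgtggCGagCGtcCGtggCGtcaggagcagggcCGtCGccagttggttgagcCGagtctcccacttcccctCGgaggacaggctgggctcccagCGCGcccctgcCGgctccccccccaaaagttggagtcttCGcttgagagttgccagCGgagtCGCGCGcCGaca
The Tfap2b window held 8 CG pairs and was 48.3% G and C, against medians of 7 and 52.7% over 32841 promoter windows. The Tfap2a windows held 11 and 15 CG pairs, the Msx2 window 22 and the Msx1 window 29. Foxd3 had 25 and Sox5 had 3, and 6 of the 9 genes had a window, while Sox9, Sox10 and Ets1 had none in the table. The AP-2 motif GCCNNNGGC, searched on both strands, was in none of the 7 windows and in 16.6% of all windows. The retinoic acid receptor half-site AGGTCA, also searched on both strands, was in none of the 7 windows and in 16.3% of all windows. No methylation was measured at these windows here.

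At the levels of day 3 Tet3+/+ cells, expressed as normalized counts per kb of merged exons, Msx1 was highest with a mean of 931 (range 832 to 1024, n = 3). Msx2 followed with 556 (476 to 601) and Sox9 with 388 (341 to 466). Tfap2b, at 218 (166 to 248), and Ets1, at 200.4 (156 to 228), overlapped. Tfap2a was at 90.4 (66.6 to 112). Foxd3, at 21.1 (8.51 to 28.1), and Sox10, at 18.2 (13.6 to 22.1), overlapped near the bottom of the order, and Sox5 was at 7.56 (6.33 to 8.58), which overlapped the lowest Foxd3 sample. Lengths join all annotated isoforms, which lowers the per-length level of a gene with many isoforms such as Sox5. In the annotation, exons of Tfap2a and Sox5 overlap transcripts of the opposite strand, and whether counting used strand is not given in the sources used here. An exon of Foxd3 overlaps the annotated gene Gm23366 on the same strand by 89 bases.

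In day 3 cells, the first question is how the crest factors differ between catalytic mutant and wild-type cells. Tfap2b and Tfap2a fell strongly in Tet3m/m, Msx2 fell less, and Ets1 and Sox10 rose. A gene was called where its Benjamini-Hochberg adjusted p from limma, over all genes tested, was under 0.05 and its fold change above 1.5. By this rule 5 of the 9 genes were called, 2 higher and 3 lower, against 10.2% of all 17915 genes.

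Tfap2b, an AP-2 factor of the border and of the later crest, had 1050, 1528 and 1571 normalized counts in Tet3+/+ against 102, 264 and 317 in Tet3m/m. Every Tet3m/m sample lay below every Tet3+/+ sample, a separation of groups in either direction that 36.7% of all genes had. The log2 fold change was -2.73 (limma, SE 0.40, adjusted p 0.00169), a level 6.62-fold lower. Tfap2a, which acts with Tfap2b at the border, was at 327, 548 and 455 in Tet3+/+ and at 83.0, 158 and 113 in Tet3m/m, again without overlap. Its log2 fold change was -1.92 (limma, SE 0.27, adjusted p 0.00125), and the calls of both AP-2 genes were kept when any single sample was left out.

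The homeobox gene Msx2, a target of BMP signalling, was at 1971, 1562 and 1938 in Tet3+/+ and at 1545, 1113 and 849 in Tet3m/m. The groups were separated only by the small gap between 1562 and 1545. The log2 fold change was -0.68 (limma, SE 0.19, adjusted p 0.039). The call was lost without any of the 3 Tet3+/+ samples or without Tet3m/m replicate 2 or 3 (adjusted p up to 0.132), and by edgeR's quasi-likelihood test on the recovered reads. Its paralog Msx1 was at 2576, 2901 and 3172 in Tet3+/+ and at 1461, 1970 and 2431 in Tet3m/m. All 3 mutant samples were lower, with a log2 fold change of -0.59 (limma, SE 0.18, adjusted p 0.0523) that was not called. It was called without Tet3m/m replicate 3 or either Tet3-/- replicate, with an adjusted p down to 0.0139.

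Among the crest specifiers, Ets1, an ETS-domain factor of the cranial crest, was at 1935, 1320 and 1840 in Tet3+/+ and at 4485, 3398 and 2722 in Tet3m/m. All mutant samples were higher, and the log2 fold change was 1.05 (limma, SE 0.19, adjusted p 0.00464). Sox10, which marks migrating crest and glia, was at 67.5, 57.9 and 41.5 in Tet3+/+ and at 153, 125 and 130 in Tet3m/m. It rose by 1.30 on the log2 scale (limma, SE 0.29, adjusted p 0.0144), a call that was lost without Tet3+/+ replicate 3 (adjusted p 0.0594).

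The remaining 3 crest specifiers were not called. Foxd3 ranged from 19.8 to 65.4 in Tet3+/+ and from 24.6 to 167 in Tet3m/m, with overlapping groups and a log2 fold change of 0.67 (95% interval -0.88 to 2.21). Sox9, an early SoxE factor of the crest, was at 1926, 1410 and 1478 in Tet3+/+ and at 1532, 1708 and 2014 in Tet3m/m. Its log2 fold change was 0.13, with an interval of -0.30 to 0.56, so that a difference above 1.5-fold in either direction was outside the interval. Sox5, a SoxD factor that modulates SoxE proteins, differed by 0.03 (-0.49 to 0.54).

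**Figure D1:**
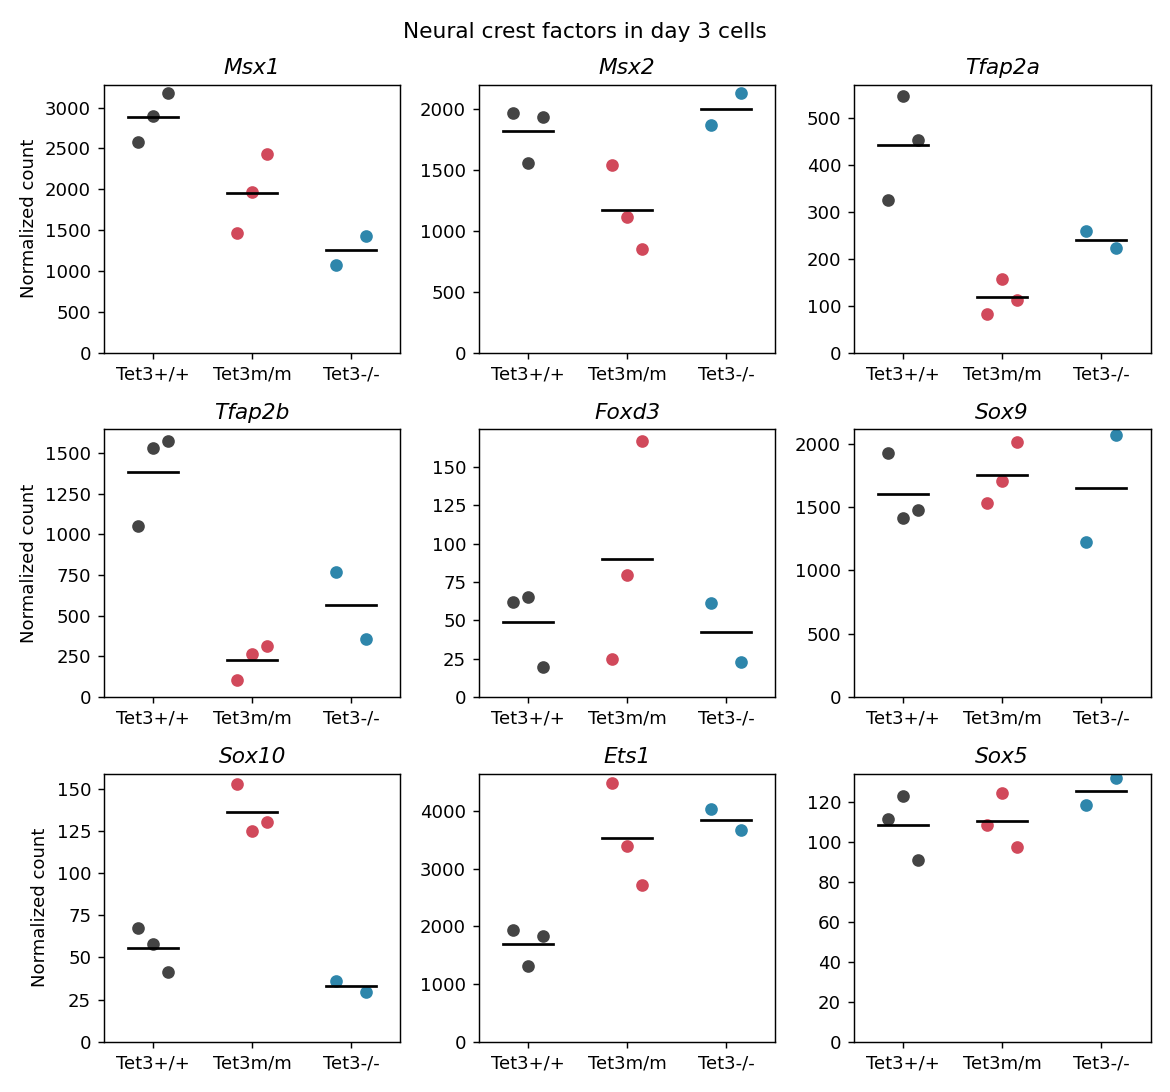
Normalized counts (vertical axes, linear from 0) of the 9 genes in day 3 cells, 1 panel per gene and 1 point per sample, with 3 Tet3+/+, 3 Tet3m/m and 2 Tet3-/- samples and a bar at each group's mean. Tfap2b and Tfap2a are lower in all 3 Tet3m/m samples, at 102 to 317 and 83.0 to 158, and Ets1 is at 2722 or higher in all mutant samples.

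Fewer of these genes were called in the knockout, where fewer of all genes were called too. Without adjustment, the limma p was under 0.05 for 5 of the 9 in Tet3-/- and 6 in Tet3m/m. In Tet3-/- cells, 2 of the 9 genes were called, Ets1 higher and Msx1 lower, against 0.642% of all genes. Ets1 was at 4029 and 3663 in Tet3-/-, both above the highest Tet3+/+ sample. It rose by 1.20 on the log2 scale (limma, SE 0.21, adjusted p 0.0464). Msx1 was at 1078 and 1422, both below the lowest Tet3+/+ sample. Its log2 fold change was -1.21 (limma, SE 0.20, adjusted p 0.0464). Both calls were lost without any Tet3+/+ replicate, Tet3m/m replicate 2 or either Tet3-/- replicate, with adjusted p up to 0.166. In these 6 fits 0 to 2 of all genes were called, while without Tet3m/m replicate 1 the count was 706, against 115 with all samples.

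The AP-2 genes in Tet3-/- lay between the other genotypes. Tfap2b was at 769 and 360, below all Tet3+/+ samples and above all Tet3m/m samples. Against Tet3+/+ the log2 fold change was -1.37 (limma, SE 0.45, adjusted p 0.129), and against Tet3m/m it was 1.36 (limma, SE 0.45, adjusted p 0.073). The first was called without Tet3m/m replicate 1 (adjusted p 0.0287) and the second without Tet3m/m replicate 3 (adjusted p 0.0383), and the first also with only the compared groups in the fit. Tfap2a was at 260 and 223, with a log2 fold change of -0.85 against Tet3+/+ (limma adjusted p 0.152), which DESeq2 on the recovered reads called.

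Set directly against Tet3m/m, 3 of the 9 genes were called in Tet3-/-, with Tfap2a and Msx2 higher and Sox10 lower, against 9.73% of all genes. Sox10 was at 36.1 and 29.6 in Tet3-/-, far below the 125 to 153 of Tet3m/m. Its log2 fold change was -2.02 (limma, SE 0.32, adjusted p 0.00367), and this call was kept when any single sample was left out. Tfap2a differed by 1.07 (limma, SE 0.30, adjusted p 0.041) and Msx2, at 1870 and 2136 in Tet3-/-, by 0.82 (limma, SE 0.21, adjusted p 0.0321). The Tfap2a call was lost in 6 of 8 fits that left out 1 sample, all but those without Tet3+/+ replicate 1 or Tet3m/m replicate 2. The Msx2 call was lost in all but those without Tet3+/+ replicate 2 or Tet3m/m replicate 1. The adjusted p then reached 0.174 for Tfap2a and 0.14 for Msx2, and both calls were lost with only the compared groups in the fit.

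Genes upstream of and beside these factors were taken from lists of known crest genes, whose counts stand beside the 10.2% of all genes called in Tet3m/m. Of 14 signals that induce the crest, 3 were higher and 4 lower in day 3 Tet3m/m cells, with a median log2 fold change of -0.62 against 0.00 over all genes. The crest inducers Wnt1 and Wnt6 fell by 2.04 and 1.49 on the log2 scale (limma adjusted p 0.00221 and 0.00181), while Fgf8, Wnt8a and Bmp2 rose by 2.15, 1.38 and 0.80 (limma adjusted p 0.0414, 0.0136 and 0.0108). Of 19 other plate border factors, 2 were higher and 8 lower. Pax7 averaged 31.4 normalized counts in Tet3m/m against 172 in Tet3+/+, and Pax3 392 against 882. Zic1, Zic2 and Zic5, zinc finger genes of the border and dorsal neural tube, fell by 1.33, 1.15 and 1.30 (limma adjusted p 0.00799, 0.0423 and 0.014).

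Of 20 other crest factors, 0 were higher and 3 lower, a share near that of all genes: the MYC family gene Mycn, the SoxC gene Sox11 and the orphan nuclear receptor gene Nr2f1, at means of 2612, 5330 and 3507 normalized counts against 5276, 10673 and 6638 (limma adjusted p 0.00241, 9.68e-05 and 0.000313). Of 30 genes of crest migration and derivatives, 5 were higher and 3 lower, among them Dlx1 and the cartilage gene Acan higher and the retinoic acid binding protein gene Crabp1 lower, at a mean of 729 normalized counts against 2463. Among 7 paralogs of the 9 genes, Msx3 fell from a mean of 362 to 28.5, Tfap2c fell from 1407 to 793 and Tfap2e rose from 14.7 to 81.1. In Tet3-/- against Tet3+/+, Mycn was also called lower, with a log2 fold change of -1.02 (limma adjusted p 0.0489).

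Markers of other cells also moved with genotype on day 3, beside 10.2% of all genes called in Tet3m/m and 0.642% in Tet3-/-. Of 14 neural markers, 1 was higher and 7 lower in Tet3m/m, with the largest falls in Hes5, Pou3f3 and Pou3f2. Of 13 extraembryonic endoderm markers, 4 were higher and 0 lower in Tet3m/m. Their summed level was 62904 to 88877 in Tet3+/+, 72967 to 106009 in Tet3m/m, and 95022 and 98558 in Tet3-/-. In Tet3-/- against Tet3+/+, 0 of the 13 were called and their median log2 fold change was -0.88, although the sum was higher. Of 8 endothelial markers, a cell type in which Ets1 is active, 1 was higher and 2 lower in Tet3m/m. The endothelial sum overlapped between Tet3+/+ (1257 to 1569) and Tet3m/m (1443 to 1508). Of 12 early mesoderm markers, 2 were higher and 2 lower in Tet3m/m, and 0 were called in Tet3-/-. Surface ectoderm and trophoblast also express AP-2 and Msx genes. Of 9 surface ectoderm markers 0 were higher and 1 lower, and of 12 trophoblast markers 1 was higher and 3 lower, with sums that overlapped between Tet3+/+ and Tet3m/m. The trophoblast sum was 126392 and 146230 in Tet3-/-, above the 64906 to 90684 of Tet3+/+. However, 0 of the 12 were called in Tet3-/- against Tet3+/+, with a median log2 fold change of 0.02. The 11 pluripotency markers, which bear on Foxd3, included no called gene in Tet3m/m, with a median log2 fold change of 0.55. Their sum was 6994 to 10720 in Tet3+/+ and 7537 to 20712 in Tet3m/m. The part of these cells in the results was not tested.

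In the empty-vector cells of the Dnmt1 experiment the same genotypes were compared in other cultures, normalized apart from the day 3 samples. Here all 4 plate border specifiers fell in Tet3m/m, Foxd3 rose, and Sox9 and Sox5 fell. These 7 of 9 genes compare with 21.2% of all 18055 genes called in either direction, and the 4 of 4 border specifiers with 10.9% called lower. The division into border and crest specifiers was written with earlier results of these data known, so the 4 of 4 is a description only.

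Tfap2b had 933 and 1017 normalized counts in Tet3+/+ but 1.83 and 7.81 in Tet3m/m, which are 2 and 6 reads. Both mutant libraries were thus near the limit of detection. Over both libraries the Tet3+/+ level was 227-fold higher, with a 95% Poisson interval of 115 to 526 that covers counting error only. It was 533-fold against Tet3m/m replicate 1 alone and 125-fold against replicate 2 alone. The fitted log2 fold change of -7.61 (limma, SE 0.32, adjusted p 2.17e-14) depends on the pseudocount at such counts. Msx1 was at 2385 and 2287 in Tet3+/+ and at 470 in both Tet3m/m samples, a log2 fold change of -2.31 (limma, SE 0.07, adjusted p 3.85e-17). Msx2 was at 1545 and 1496 against 594 and 609, and Tfap2a at 304 and 275 against 129 and 109. Their log2 fold changes were -1.34 (limma, SE 0.08, adjusted p 1.07e-11) and -1.28 (limma, SE 0.18, adjusted p 3.6e-06). None of the 4 genes lost its call when a sample was left out.

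The crest specifiers did not follow one pattern. Foxd3 was at 103 and 85.8 in Tet3+/+ and at 346 and 297 in Tet3m/m, a rise of 1.76 on the log2 scale (limma, SE 0.26, adjusted p 9.05e-06). Sox9 was at 1033 and 1081 against 674 and 646, a log2 fold change of -0.68 (limma, SE 0.07, adjusted p 5.61e-08). Sox5 was at 132 in both Tet3+/+ samples and at 95.05 and 72.9 in Tet3m/m, a log2 fold change of -0.66 (limma, SE 0.24, adjusted p 0.0264). The Sox5 call was lost without either Tet3+/+ sample or Tet3m/m replicate 2 (adjusted p up to 0.201). Sox5 lies on chromosome 6, whose 805 tested genes centred on a log2 fold change of -0.26 here. The 50 genes tested around Sox5 had a median of 0.04. The part of the chromosome shift in the Sox5 value was not tested.

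Sox10 and Ets1, both higher in Tet3m/m on day 3, were not called here. Sox10 was at 188 and 181 in Tet3+/+ and at 149 and 143 in Tet3m/m, a log2 fold change of -0.33 (95% interval -0.84 to 0.17). Ets1 was at 1111 and 1090 against 1056 and 991, a difference of -0.11 (-0.26 to 0.05).

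Tet3-/- cells with the empty vector showed another pattern. Ets1 and Msx2 rose and Foxd3, Sox10 and Sox5 fell, 5 of 9 genes against 24.9% of all genes. Ets1 was at 2472 and 2462, a rise of 1.16 on the log2 scale (limma, SE 0.07, adjusted p 2.3e-11), and Msx2 at 2744 and 2410, a rise of 0.76 (limma, SE 0.08, adjusted p 8.49e-08). Foxd3 was at 17.9 and 33.9, a log2 fold change of -1.89 (limma, SE 0.26, adjusted p 3.38e-06). Sox10 was at 58.5 and 50.8, a log2 fold change of -1.74 (limma, SE 0.24, adjusted p 3.77e-06), and Sox5 at 73.9 and 74.1, one of -0.83 (limma, SE 0.24, adjusted p 0.00541). These 5 calls were kept when any single sample was left out.

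The AP-2 genes of Tet3-/- did not differ detectably from Tet3+/+ in this experiment. Tfap2b was at 942 and 1139, with a log2 fold change of 0.09 (95% interval -0.57 to 0.75), and Tfap2a at 269 and 370, with 0.13 (-0.24 to 0.49). Msx1, at 2667 and 2673, differed by 0.19 (0.06 to 0.33), and Sox9, at 1578 and 1544, by 0.56 (0.42 to 0.71, limma adjusted p 8.12e-07), below the 1.5-fold threshold. Sox9 passed it, at 0.59, only without the second Tet3+/+ column. Against Tet3m/m, 8 of the 9 genes were called in Tet3-/-, 6 higher and 2 lower, against 39.6% of all genes, and Sox5 was the gene not called.

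**Figure D2:**
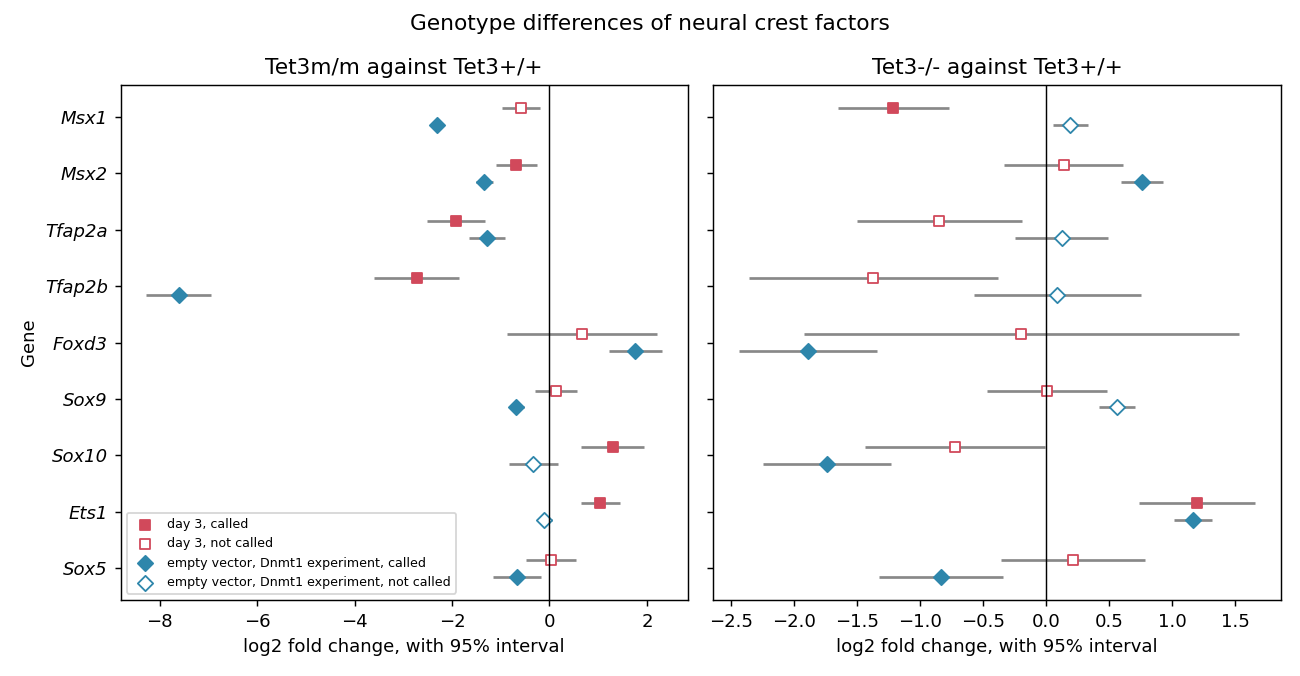
Log2 fold changes (horizontal axes) of the 9 genes in Tet3m/m (left) and Tet3-/- (right) against Tet3+/+, on day 3 (squares) and with the empty vector of the Dnmt1 experiment (diamonds), with 95% intervals from limma and filled symbols for called genes. The 4 plate border specifiers lie left of 0 in both experiments for Tet3m/m, and Ets1 lies right of 0 in both for Tet3-/-.

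Other crest genes also differed with genotype in these cells, in both directions. Of 20 other crest factors, 2 were higher and 12 lower in Tet3m/m, with a median log2 fold change of -0.99 against 0.01 over all genes, of which 21.2% were called. Nr2f1 averaged 215 normalized counts against 2464 in Tet3+/+, Nr2f2 679 against 4276, Twist1 585 against 2447 and Snai2 81.8 against 392. Twist1 and Snai2 are regulators of crest delamination. Of the 14 crest inducing signals, 3 were higher and 6 lower: Wnt6 averaged 81.9 against 1847 and Bmp4, an inducer of the Msx genes, 255 against 1470. Of 29 genes of migration and derivatives, 7 were higher and 14 lower. In Tet3-/- against Tet3+/+, 4 of the other crest factors were higher and 5 lower, and 5 of the signals higher and 2 lower, beside 24.9% of all genes. Of the 19 border factors, 3 were higher and 5 lower. Wnt6 averaged 7190 and Wnt3 366 against 122, while Fgf8 averaged 10.04 against 39.99 and Fgf3 69.7 against 229. Nr2f1 and Nr2f2 were higher, at 5442 and 7953, and Rxrg, Sox8 and Pax8 lower, at 9.34 against 47.2, 38.4 against 100.5 and 23.9 against 63.6.

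Pluripotency and extraembryonic endoderm markers differed far more here than on day 3. Of all genes, 21.2% were called in Tet3m/m and 24.9% in Tet3-/-. Of 14 neural markers, 5 were higher and 4 lower in Tet3m/m, and 5 higher and 5 lower in Tet3-/-. In Tet3+/+, Tet3m/m and Tet3-/-, Sox1 averaged 2423, 905 and 370, Pax6 1018, 270 and 986, and Nes 4451, 941 and 12157. Of 12 early mesoderm markers, 3 were higher and 5 lower in Tet3m/m, and 1 higher and 3 lower in Tet3-/-. The 11 pluripotency markers summed to 30626 and 31028 normalized counts in Tet3+/+, 82729 and 83511 in Tet3m/m, and 5456 and 5951 in Tet3-/-. Of these 11 genes, 10 were higher and 1 lower in Tet3m/m, and 10 were lower in Tet3-/-, beside the same order of Foxd3. The 13 extraembryonic endoderm markers summed to 194541 and 202907 in Tet3+/+, 475272 and 529969 in Tet3m/m, and 78399 and 82472 in Tet3-/-. The 8 endothelial markers summed to 1931 and 2137 in Tet3+/+, 3351 and 3520 in Tet3m/m, and 591 and 592 in Tet3-/-. Within these sums, Pecam1 alone averaged 1009 in Tet3+/+, 1758 in Tet3m/m and 159 in Tet3-/-. Of the 8, 4 were higher and 0 lower in Tet3m/m, and 0 higher and 5 lower in Tet3-/-. Ets1 was not called in Tet3m/m and was higher in Tet3-/-. Markers of surface ectoderm and trophoblast, which express AP-2 and Msx genes, were lower in Tet3m/m beside the border specifiers. Of 10 surface ectoderm markers 1 was higher and 6 lower, with a median log2 fold change of -0.998. Their sum was 35182 and 35246 in Tet3+/+, 21698 and 22250 in Tet3m/m, and 48645 and 48754 in Tet3-/-. Of 12 trophoblast markers 1 was higher and 8 lower, with a median of -1.42, and their sum was 54260 and 54312 in Tet3+/+, 22395 and 24656 in Tet3m/m, and 110923 and 114557 in Tet3-/-. The lists share Gata3 with each other and with the border factors, and Wnt6, Gata2 and Tfap2c also stand in the crest lists. The part of cells at another stage or of another type in these results was not tested.

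Transfected Dnmt1 raised the Dnmt1 count from 14679 and 15225 to 22799 and 23768 in Tet3+/+, from 11934 and 11285 to 20245 and 23211 in Tet3m/m, and from 17356 and 17554 to 33381 and 39854 in Tet3-/-. The comparison asks which genes respond to more Dnmt1 in each genotype. In Tet3m/m, 5 crest factors rose, in Tet3-/- Msx1 fell and Ets1 rose, and in Tet3+/+ none was called.

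In Tet3+/+, 0 of the 9 genes were called by limma, against 1.17% of all genes. Without adjustment 3 of the 9 had a p under 0.05, edgeR called 1 and DESeq2 called 0. Sox9 rose from 1033 and 1081 to 1542 and 1497 normalized counts, a log2 fold change of 0.52 (limma, SE 0.07, adjusted p 0.000143) that is below 1.5-fold. Tfap2b was at 933 and 1017 with the empty vector and at 1693 and 1540 with Dnmt1. Its log2 fold change was 0.73 (limma, SE 0.32, adjusted p 0.197), and it was called by edgeR's quasi-likelihood test, with only the compared groups in the fit, or without either empty-vector Tet3m/m sample (adjusted p down to 0.022).

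In Tet3m/m, 5 of the 9 genes were called, all higher, against 1.78% of all genes called higher and 2.46% in either direction. Tfap2b rose from 1.83 and 7.81 to 71.5 and 82.3 normalized counts. Both values with Dnmt1 lay above both values with the empty vector and far below the 933 and 1017 of Tet3+/+. The level was 17.9-fold higher, with a 95% Poisson interval of 9.08 to 41.5 from the 8 reads of the empty-vector libraries. It was 42.1-fold against empty-vector replicate 1 alone and 9.84-fold against replicate 2 alone. Sox9 rose from 674 and 646 to 1279 and 1194, a log2 fold change of 0.90 (limma, SE 0.07, adjusted p 1.56e-08). Msx1 rose from 470 in both samples to 751 and 693, by 0.62 (limma, SE 0.07, adjusted p 1.36e-06), and fell below the fold threshold, at 0.56, without the first Dnmt1 sample of Tet3m/m.

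Foxd3 and Sox5 were closer to the threshold. Foxd3 rose from 346 and 297 to 666 and 496, by 0.84 on the log2 scale (limma, SE 0.26, adjusted p 0.045). The Foxd3 call was lost without any 1 of the 8 Tet3+/+ and Tet3m/m samples (adjusted p up to 0.35). Sox5 rose from 95.05 and 72.9 to 131 and 164, by 0.81 (limma, SE 0.24, adjusted p 0.0313), a call lost without empty-vector replicate 2 or either Dnmt1 replicate of Tet3m/m (adjusted p up to 0.239). Ets1, at 1056 and 991 against 1439 and 1469, changed by 0.51 (limma, SE 0.07, adjusted p 6.29e-05), below 1.5-fold. Msx2, Tfap2a and Sox10 differed by -0.09, -0.04 and 0.17, with 95% intervals of -0.26 to 0.07, -0.41 to 0.33 and -0.33 to 0.68.

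In Tet3-/-, 2 of the 9 genes were called, against 3.53% of all genes. Msx1 fell from 2667 and 2673 to 1673 and 1687 normalized counts, a log2 fold change of -0.67 (limma, SE 0.07, adjusted p 9.84e-07). Ets1 rose from 2472 and 2462 to 3565 and 4215, by 0.65 (limma, SE 0.07, adjusted p 4.04e-06), and was below the fold threshold, at 0.53, without Dnmt1 replicate 2 of Tet3-/-. Tfap2b was at 942 and 1139 with the empty vector and at 709 and 418 with Dnmt1, and Tfap2a at 269 and 370 against 243 and 196. Neither gene's groups overlapped, as for 52.0% of all genes, and their log2 fold changes of -0.93 and -0.53 were not called (limma adjusted p 0.0584 and 0.0524). Tfap2b was called in 5 of 9 other settings, DESeq2 and edgeR on recovered reads among them. It was also called without either empty-vector Tet3m/m sample or Dnmt1 replicate 1 of Tet3-/- (adjusted p down to 0.00177).

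**Figure D3:**
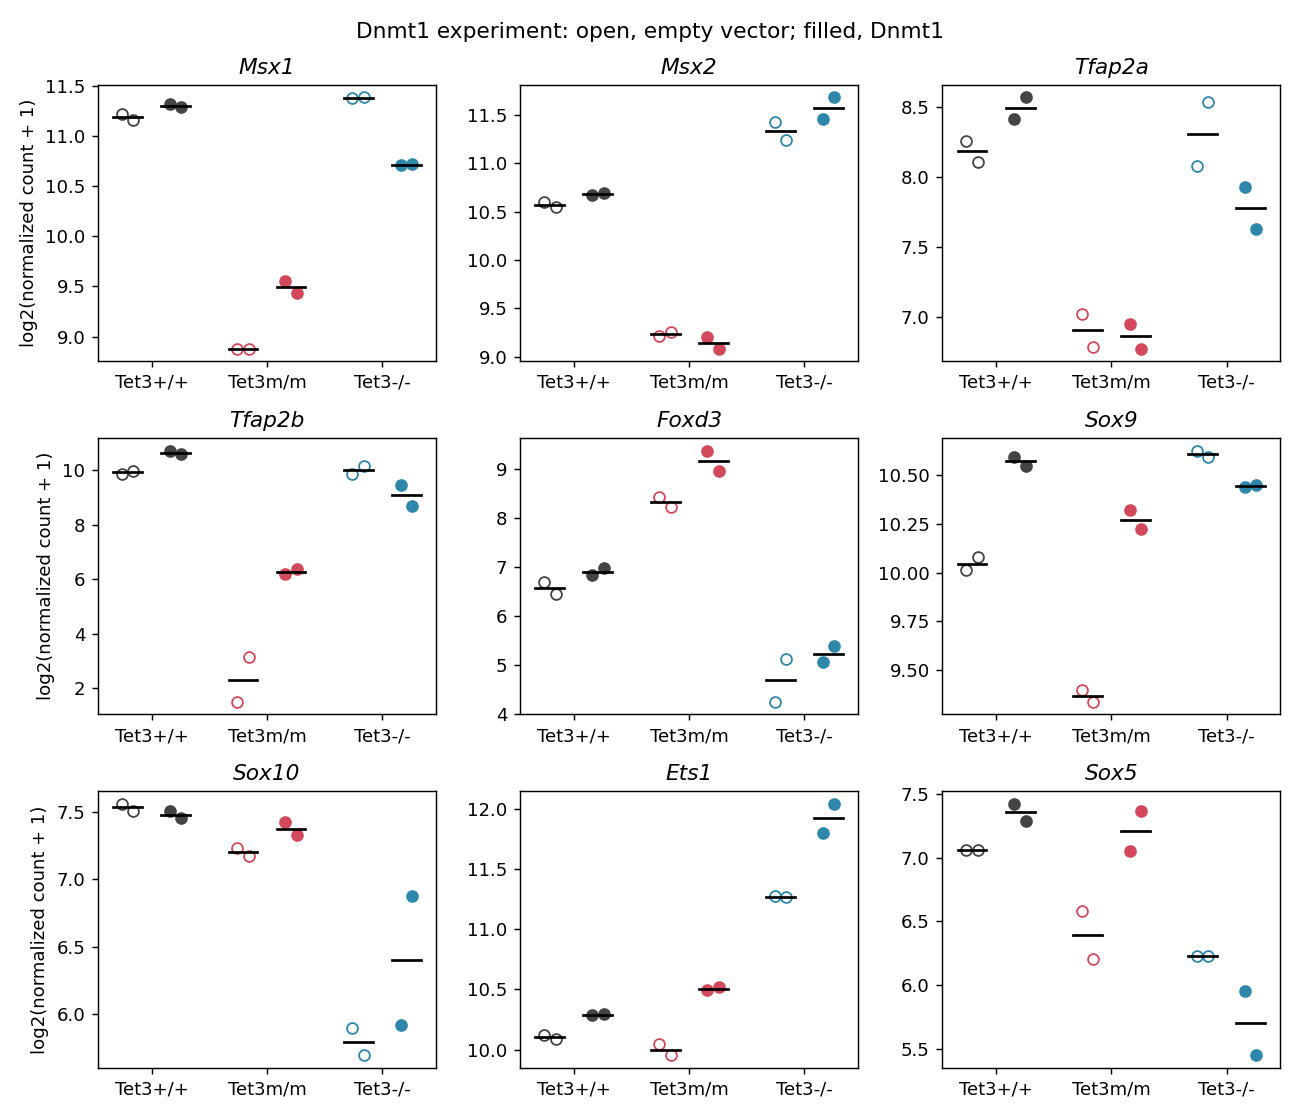
Log2 of the normalized count plus 1 (vertical axes, which do not start at 0) of the 9 genes in the Dnmt1 experiment, 1 panel per gene, with open points for the 2 empty-vector samples and filled points for the 2 Dnmt1 samples of each genotype and a bar at each mean. Tfap2b of Tet3m/m rises from near the bottom of its panel, at 1.83 and 7.81 normalized counts, to 71.5 and 82.3.

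Whether the response to Dnmt1 differed between genotypes was tested as a difference of log2 fold changes. For Tet3m/m against Tet3+/+, 1 of the 9 genes was called, Tfap2b, against 0.604% of all genes. Its response was larger by 3.23 (limma, SE 0.45, adjusted p 0.000308), a value that rests on the few reads of the empty-vector Tet3m/m libraries. Leaving out empty-vector Tet3m/m replicate 1 or 2 gave the lowest and highest value, 2.41 and 4.05. The Msx1 response was larger by 0.50 (limma, SE 0.09, adjusted p 0.00525), below 1.5-fold. The responses of Sox9, Foxd3 and Sox5, called in Tet3m/m and not in Tet3+/+, were not shown to differ between the 2 genotypes, with differences of 0.38, 0.50 and 0.51 (limma adjusted p 0.0657, 0.696 and 0.639).

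For Tet3-/- against Tet3+/+, 4 of the 9 genes were called, all in the direction of a lower response in Tet3-/-, against 1.33% of all genes called lower and 3.99% in either direction. The differences were -0.78 for Msx1 (limma, SE 0.09, adjusted p 1.25e-05) and -0.69 for Sox9 (limma, SE 0.10, adjusted p 0.000123), both kept when any single sample was left out. They were -1.66 for Tfap2b (limma, SE 0.45, adjusted p 0.022) and -0.84 for Tfap2a (limma, SE 0.25, adjusted p 0.0378). Both AP-2 calls were lost without any Tet3+/+ sample of either vector or without replicate 2 of either vector in Tet3-/- (adjusted p up to 0.213). The Ets1 response was larger by 0.47 (limma, SE 0.10, adjusted p 0.00516), below 1.5-fold.

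Other crest genes of Tet3m/m rose with Dnmt1 as well, beside 2.46% of all genes called. Of 20 other crest factors, 6 were higher and 0 lower, with Twist2 at a mean of 47.1 against 7.77, Nr2f1 at 489 against 215, Nr2f2 at 1339 against 679 and Snai2 at 140.5 against 81.8. Of the 14 signals, 5 were higher, including Wnt1, Wnt3a and Bmp4, and of 19 other border factors 3 were higher, Zic1, Gata3 and Pax3. Of the same lists in Tet3+/+, 0 other crest factors, 1 signal (Wnt1) and 3 border factors were higher, and none was lower. In that genotype 1.17% of all genes were called. The 3 border factors were Zic1, which went from a mean of 437 to 1095, Pax3, from 391 to 596, and Zic2, from 998 to 1535. In Tet3m/m the sum of surface ectoderm markers was 21805 and 22307 with Dnmt1, and that of trophoblast markers 23162 and 24692, both close to the empty vector. Of the 11 pluripotency markers 1 was higher and 0 lower, and their sum was 89340 and 91369 with Dnmt1 against 82729 and 83511. In Tet3-/-, where 3.53% of all genes were called, 7 of the 11 pluripotency markers were higher. There 2 of the other crest factors, Twist1 and Mycn, were lower. The part of the pluripotency shift in the Tet3-/- values was not tested.

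**Figure D4:**
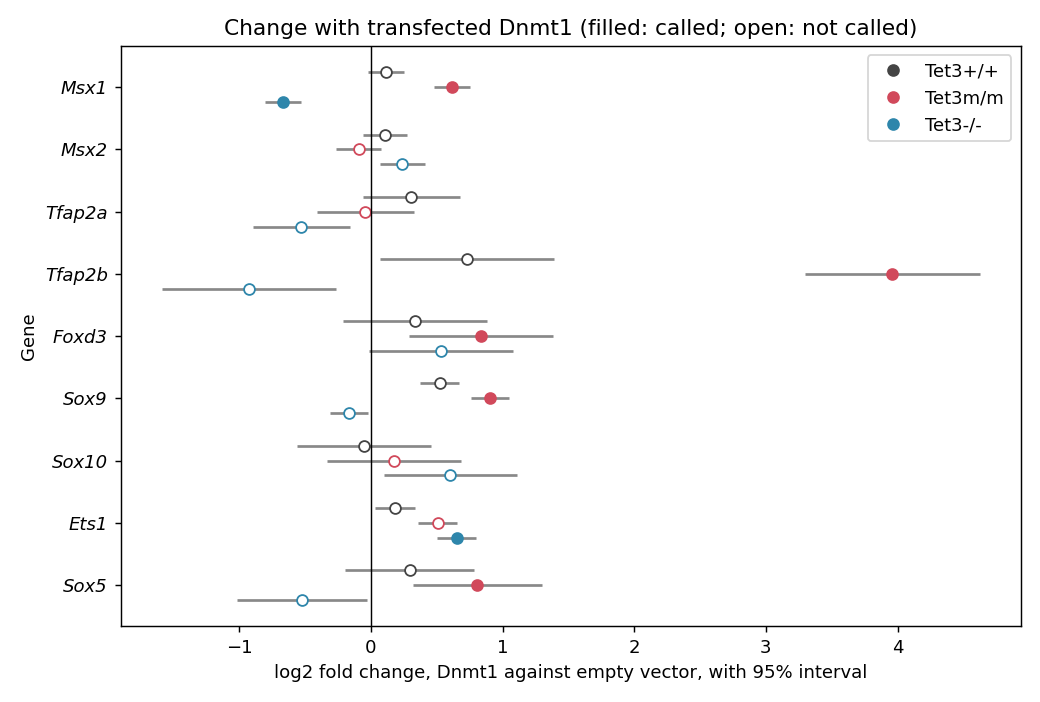
Log2 fold change of Dnmt1 against the empty vector (horizontal axis) for the 9 genes in each genotype, with 95% intervals from limma and filled points for called genes. Tfap2b of Tet3m/m stands apart at 3.96, and Msx1 is above 0 in Tet3m/m (0.62) and below 0 in Tet3-/- (-0.67).

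In the Tet3-CD experiment each group is 1 sample, so that values are compared without a test and counting intervals cover counting error only. Tet3 reads, which may include the transfected domain, went from 4755 normalized counts under the empty vector to 5441 under Tet3-CD in Tet3+/+, from 1850 to 5232 in Tet3m/m, and from 2070 to 2759 in Tet3-/-. With the empty vector, Tfap2b was at 526 in Tet3+/+, 28.9 in Tet3m/m and 589 in Tet3-/-. Tfap2a was at 260, 139 and 494 in the same order, so that both AP-2 genes were lowest in Tet3m/m in all 3 experiments.

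Msx1 and Msx2 were arranged differently from the Dnmt1 experiment. Msx1 was at 1555 in Tet3+/+, 1835 in Tet3m/m and 785 in Tet3-/-, and Msx2 at 1377, 2362 and 1566. Ets1 was at 2153, 5982 and 1590, Foxd3 at 40.6, 114 and 58.1, and Sox10 at 17.1, 70.8 and 50.1. Sox5 was at 113, 31.7 and 90.2, lowest in the single Tet3m/m sample. Sox9 varied least, at 1124, 1099.5 and 986. Against Tet3+/+, 7 of the 9 genes of Tet3m/m and 3 of the 9 of Tet3-/- were past 1.5-fold, beside 36.3% and 27.1% of all 17481 genes. Marker levels set both Tet3+/+ libraries of this experiment apart from the mutant libraries. With the empty vector, extraembryonic endoderm markers summed to 779683 normalized counts in Tet3+/+, against 159189 in Tet3m/m and 207930 in Tet3-/-. Surface ectoderm markers summed to 16483, against 48946 and 44769, and trophoblast markers to 44337, against 115324 and 106929. With Tet3-CD, the Tet3+/+ sums were 649728, 19593 and 52014 in the same order of lists. The part of these cells in the genotype differences was not tested.

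Tet3-CD left most of the 9 genes within 1.5-fold of the empty vector. In Tet3m/m only Sox5 was past it, at 81.7 against 31.7 normalized counts (log2 ratio 1.34, counting interval ± 0.57), beside 10.1% of all genes. Tfap2b of Tet3m/m was at 35.7 with Tet3-CD and 28.9 with the empty vector, a log2 ratio of 0.30 ± 0.68 that is within counting error. In Tet3+/+ only Foxd3 was past 1.5-fold, at 25.7 against 40.6, a log2 ratio of -0.64 ± 0.72 that is within counting error too, beside 13.4% of all genes. In Tet3-/-, Ets1 was at 3339 against 1590 and Msx2 at 2492 against 1566, while Tfap2b was at 236 against 589, 3 of 9 genes beside 21.5% of all genes. In that genotype the pluripotency markers summed to 7757 with Tet3-CD against 13006, and the extraembryonic endoderm markers to 130502 against 207930. The part of these cells in the 3 ratios was not tested.

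**Figure D5:**
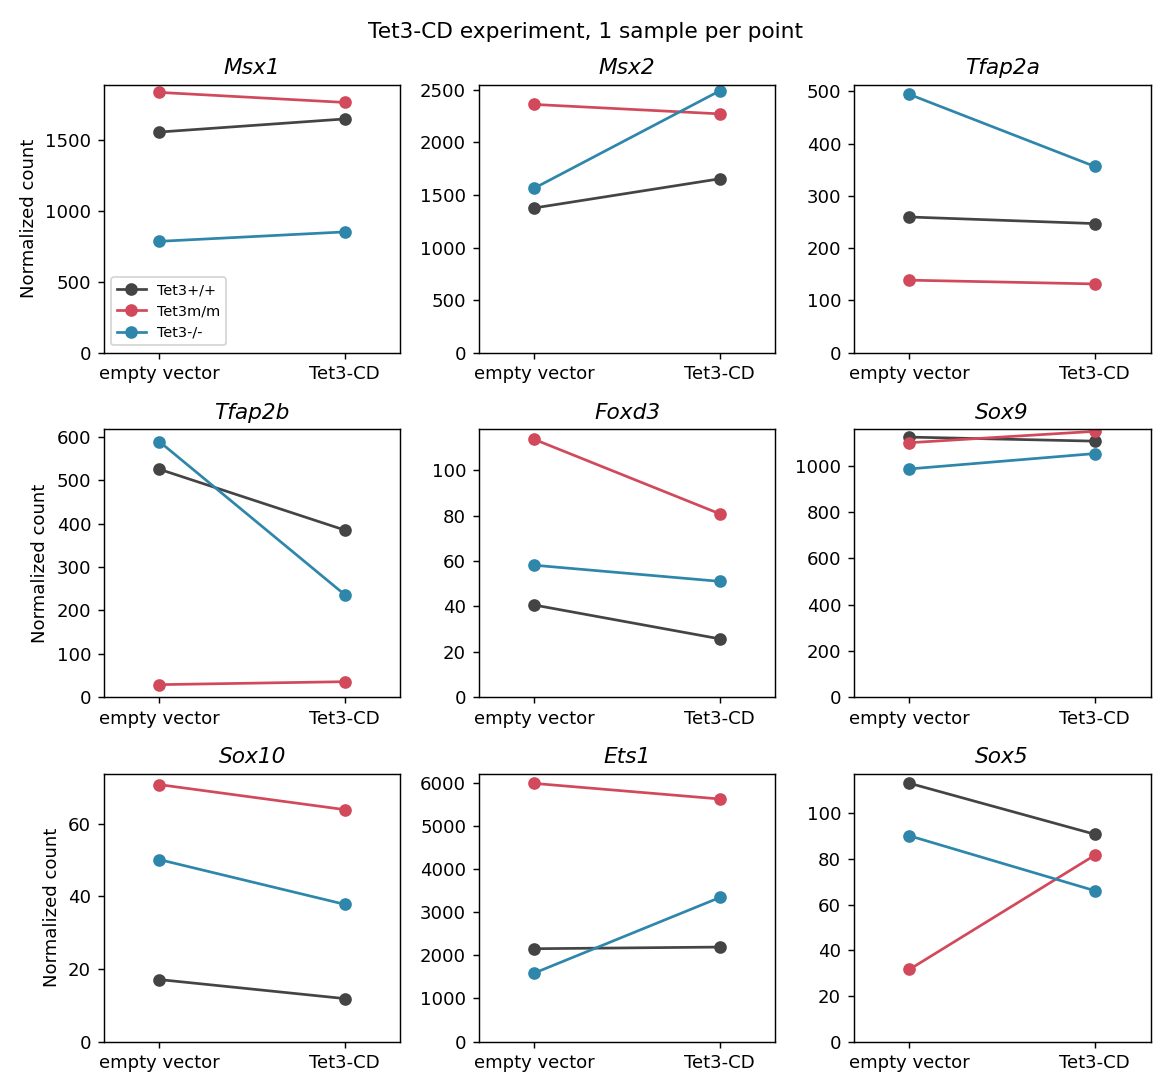
Normalized counts (vertical axes, linear from 0) of the 9 genes under either vector of the Tet3-CD experiment, 1 panel per gene, 1 sample per point, with a line joining the samples of a genotype. Tfap2b of Tet3m/m stays near the bottom of its panel, at 28.9 and 35.7, while the Ets1 line of Tet3-/- goes from 1590 to 3339.

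Across the 20 samples of the day 3 and Dnmt1 experiments, each experiment centred on its own mean, the level of Tfap2b was most like that of Ptn, Sema3a and Gm14226 among 13625 genes (Pearson r of 0.98, 0.97 and 0.97 on the log2 scale). Among the 9 genes it was most like Msx1 (0.90) and Tfap2a (0.79), while Msx2 and Foxd3 ran opposite to each other (-0.92). Msx1 was most like Bmp4, Meis1 and Plcg1 (0.96 each), Msx2 like Tmem123, Ikzf4 and Ddr1 (0.99, 0.99 and 0.98), and Tfap2a like Bahcc1, Ezh2 and Arhgap33 (0.96 each). Foxd3 was most like Cobl, Esrrb and Arl14epl (0.97, 0.96 and 0.96), Esrrb being a pluripotency gene. Ets1 was most like Actn1, Fgf13 and Wdr1 (0.98, 0.97 and 0.97). Sox9, Sox10 and Sox5 had less like genes, led by Rhot2 (0.91), Gm12183 (0.91) and Itga8 (0.90). These correlations describe 20 samples that share genotype groups and clones and carry no test.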

How the data were processed

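RNA-seq of 26 of the 35 samples was used, as 3 tables of normalized counts. Per the study's methods, the authors trimmed reads with Trim Galore 0.6.7, aligned them with STAR 2.7.9a to mm39, counted them per gene with featureCounts by largest overlap and normalized them with DESeq2. The deposited values are these normalized counts (a signal in units of reads), and 100.0% were within 0.01 of whole reads once the scaling was undone. Each table was normalized separately and was tested alone.

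Genes with a mean of at least 10 were tested on log2(value + 1) with limma 3.58.1 in R 4.3.3, with a mean-variance trend, fitting each experiment as a whole, so that a fold change is on that scale and understates the change of low genes. The p-values were adjusted by Benjamini-Hochberg over all genes tested, and a call needed an adjusted p under 0.05 and a change above 1.5-fold. The Tet3-CD experiment has 1 sample per group and no test. Intervals from reads are at 95% and cover counting error only. They are exact Poisson intervals for Tfap2b in the Dnmt1 experiment and a normal approximation on the log2 ratio in the Tet3-CD experiment. The alternatives were other pseudocounts and filters, edgeR 4.0.16 and DESeq2 1.42.0 on recovered reads, TMM rescaling, only the compared groups, no fold threshold, a replicate block and leaving out each sample. The procedure was tested on simulated data.

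Named genes were the 9 factors, Tet3 and Dnmt1, called genes of each context list (at most 5 per list and comparison, by size of change), and for each factor the 3 genes with the highest correlation among those with a mean of at least 50. The 9 genes and the lists were chosen with earlier results of these data known. The column names of the Tet3+/+ empty-vector samples in the Dnmt1 experiment carry the same replicate number, so these samples have no number of their own. Samples with the same replicate number did not deviate together (correlations of -0.229 to 0.163 on day 3 and -0.0997 to 0.0399 in the Dnmt1 experiment).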

Additional observations from a re-analysis of the deposited data

Results flagged for a closer look

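The response to Dnmt1 differed between genotypes for several of the 9 genes, by limma's test of the difference of log2 fold changes with an adjusted p under 0.05. In Tet3m/m minus Tet3+/+, the difference was 3.23 for Tfap2b and 0.50 for Msx1. In Tet3-/- minus Tet3+/+, it was -1.66 for Tfap2b, -0.84 for Tfap2a, -0.78 for Msx1, -0.69 for Sox9 and 0.47 for Ets1.

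For 5 genes the 2 Dnmt1 samples of Tet3m/m and those of Tet3-/- lay on opposite sides of their empty-vector samples, a difference between these 2 genotypes that was not tested. Separation of 2 samples from 2 was common, as 52.0% of all genes had it for Dnmt1 in Tet3-/-. The share of all genes separated in opposite directions was not counted. The log2 fold changes in Tet3m/m and Tet3-/- were 3.96 and -0.93 for Tfap2b, 0.62 and -0.67 for Msx1, 0.90 and -0.17 for Sox9, 0.81 and -0.52 for Sox5, and -0.0936 and 0.24 for Msx2.

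For 3 genes the mutant samples lay on opposite sides of Tet3+/+ on day 3 and with the empty vector of the Dnmt1 experiment. In Tet3m/m the log2 fold changes were 1.30 and -0.33 for Sox10 and 1.05 and -0.11 for Ets1, and in Tet3-/- they were -1.21 and 0.19 for Msx1. This difference was not tested either, since the experiments were normalized apart. None of the 3 empty-vector changes was called. On day 3, 36.7% of all genes had separated groups in Tet3m/m, and the share separated in opposite directions was not counted.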

How the results depend on the processing

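Over the 9 genes and all tested comparisons, settings other than leaving out a sample kept the direction and the side of the threshold of 916 values, while 20 became called and 9 lost their call. With 1 sample left out, 987 were kept, 19 became called, 58 lost their call and 16 changed sign. The count of called genes among the 9 moved by more than 1.5 times as follows. With only the compared groups it was 1 in place of 3 for day 3 Tet3-/- against Tet3m/m, and 1 in place of 0 for Dnmt1 in Tet3+/+, where edgeR and dropping the fold threshold also gave 1. Dropping the fold threshold gave 2 in place of 1 for the difference of Dnmt1 responses between Tet3m/m and Tet3+/+. With a pseudocount of 5, 0 genes in place of 1 were past 1.5-fold for Tet3-CD in Tet3+/+. The cause was not tested.

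With 1 sample left out, the count ranged from 3 to 6 for day 3 Tet3m/m (lowest without Tet3+/+ replicate 3), 0 to 3 for day 3 Tet3-/-, 1 to 3 for Tet3-/- against Tet3m/m, 0 to 1 for Dnmt1 in Tet3+/+, 2 to 5 for Dnmt1 in Tet3m/m, 1 to 5 for Dnmt1 in Tet3-/- (lowest and highest without Dnmt1 replicate 2 and 1) and 2 to 7 for the difference of responses between Tet3-/- and Tet3+/+ (highest without Dnmt1 replicate 1 of Tet3-/-).

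Values that changed sign when 1 sample was left out were not called, and their ranges over these fits, on the log2 scale, were as follows. On day 3 in Tet3m/m, Sox5 ranged from -0.0955 to 0.122. On day 3 in Tet3-/-, Foxd3 ranged from -0.895 to 0.4996 and Sox9 from -0.372 to 0.382 against Tet3+/+, and Ets1 from -0.0233 to 0.337 and Sox9 from -0.503 to 0.251 against Tet3m/m. With the empty vector in Tet3-/-, Tfap2b ranged from -0.0481 to 0.226 and Tfap2a from -0.105 to 0.356 against Tet3+/+, and Sox5 from -0.357 to 0.0202 against Tet3m/m. With Dnmt1 in Tet3m/m, Tfap2a ranged from -0.161 to 0.0734, and the difference of responses of Foxd3 between Tet3-/- and Tet3+/+ ranged from -0.246 to 0.6397.

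Same-numbered samples share only a number. With the replicate block, the count for Dnmt1 in Tet3m/m was 3 in place of 5, with Foxd3 and Sox5 no longer called, and in the other blocked comparisons it was 6 (day 3 Tet3m/m, with Msx1 added), 2 (day 3 Tet3-/-), 3 (Tet3-/- against Tet3m/m, where Tfap2b became called and Msx2 lost its call), 8 (empty vector, Tet3-/- against Tet3m/m) and 2 (Dnmt1 in Tet3-/-). No paired analysis was possible because the columns carry no number of their own where the empty-vector Tet3+/+ samples enter.

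Over all genes, the number called for day 3 Tet3-/- against Tet3+/+ was 115, but 58 with a mean of at least 50, 916 by DESeq2, and 0 to 706 with 1 sample left out. For Tet3-/- against Tet3m/m it was 1744, and 1157 with only the compared groups. Without the fold threshold, 3831, 4504 and 7141 genes of the empty-vector comparisons became 8230, 9612 and 11852, the Dnmt1 counts of 212, 444 and 638 became 1010, 1842 and 2423, and those of the differences, 109 and 721, became 236 and 1753. The Dnmt1 count in Tet3-/- was 335 with only the compared groups. With 1 sample left out, the Dnmt1 counts ranged from 75 to 291 in Tet3+/+ and 356 to 1027 in Tet3-/-, and that of the Tet3-/- difference from 473 to 1079. With a mean of at least 50, the genes past 1.5-fold in the Tet3-CD experiment fell from 2344, 1766 and 3751 (Tet3-CD) to 594, 313 and 1889, and from 6338 and 4735 (genotypes) to 4011 and 2746.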
